A study of Mus musculus with 4 samples.

Results

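The genes described here are 36 genes of glucose uptake, glycolysis, lactate exchange and pyruvate entry into mitochondria, read from whole-genome expression arrays of mouse prefrontal cortex. They were chosen by symbol: a probe set (a group of short probes for 1 transcript) had to carry exactly 1 gene symbol in the array's annotation, and a gene with several was read by the one whose mean over the 4 arrays was highest. Of the 36 genes, 33 had such a probe set, and 32 were tested among 18193 genes and 45037 probe sets. Gapdh was carried only by array control probe sets and is described apart, and Gpi1, Eno1 and Mpc2 were not analysed here. The study set threat pools, from mice exposed repeatedly to social threat (environment HighThreat), against control pools (environment LowThreat). Each of the 4 arrays (Affymetrix MOE430 2.0) held prefrontal cortex RNA of 5 mice combined, with 2 threat pools and 2 control pools. The labels name no strain, sex, age or length of exposure. Values are on a log2 scale, on which a difference of 1 is 2-fold. Because each pool averages several mice, differences between pools understate how animals vary and may be partly technical.

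Glycolysis splits glucose, which enters brain cells through glucose transporters, into pyruvate. Pyruvate either enters mitochondria through its carrier and is oxidised by the pyruvate dehydrogenase complex, or is reduced to lactate by lactate dehydrogenase. In the lactate shuttle model of brain metabolism, glia release lactate through monocarboxylate transporters and neurons take it up and burn it. Kinases that phosphorylate pyruvate dehydrogenase switch the complex off, and phosphatases switch it on again.

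Most of these genes differed little between threat and control pools, and the differences were mostly small and positive. Of the 32 tested genes, 26 lay above 0 and 6 below. Over all probe sets 24265 of 45037 lay above 0, as did 14258 of the 22518 probe sets brighter than the median. The 32 genes had a median log2 difference (threat minus control) of 0.08 (quartiles 0.01 and 0.13). The median was 0.02 over all probe sets and 0.06 over the probe sets brighter than the median. Slc16a13, a member of the monocarboxylate transporter family, stood apart at 1.62-fold higher in threat. The other 31 genes lay between 1.17-fold higher and 1.14-fold lower. Adjusted p-values of the 32 genes, from limma over all probe sets, lay between 0.365 and 0.996, so none passed 0.05, as did 0.0% of all probe sets. At an unadjusted p under 0.05 there was 1 gene at its brightest probe set, Slc16a13, against 10.6% of all probe sets. With 1 probe set per gene, 891 of 18193 genes were higher and 1048 lower at that p. Of all 67 probe sets of the 32 genes, 6 were higher and 2 lower at that p.

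Both threat pools lay above both control pools in 15 genes (46.9%), and both lay below in 3 genes (9.4%). The pools of the other 14 overlapped. Over all probe sets, threat pools lay above in 23.9% and below in 19.4%. With 1 probe set per gene, chosen in the same way, the shares were 26.2% and 18.8%, and among the probe sets brighter than the median, where 31 of the 32 genes lie, they were 32.3% and 16.8%. The difference between the groups was larger than both gaps between pools of 1 group in 12 genes. How often this holds over all probe sets was not counted, so this number has no background to be read against. A difference of at least 1.5-fold with separate pools was met by 1 gene, against 0.83% of all probe sets. The 95% intervals bound what could have been missed at the brightest probe set of each gene. There 31 intervals held 0, and these 31 also lay inside 1.5-fold in both directions. The widest bounds were 1.38-fold higher (Pfkp) and 1.35-fold lower, leaving out Slc16a3, which was not above background. Other probe sets of some genes reached further, so larger changes in those genes are not excluded. Another probe set of Pfkp had an interval of 1.13- to 1.78-fold higher. In Pdk1 another probe set had 1.07- to 1.54-fold higher, and a further one reached 1.43-fold lower. With 2 pools a group, an exact permutation test cannot give a 2-sided p below 0.333, so none was run for single genes.

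**Figure D1:**
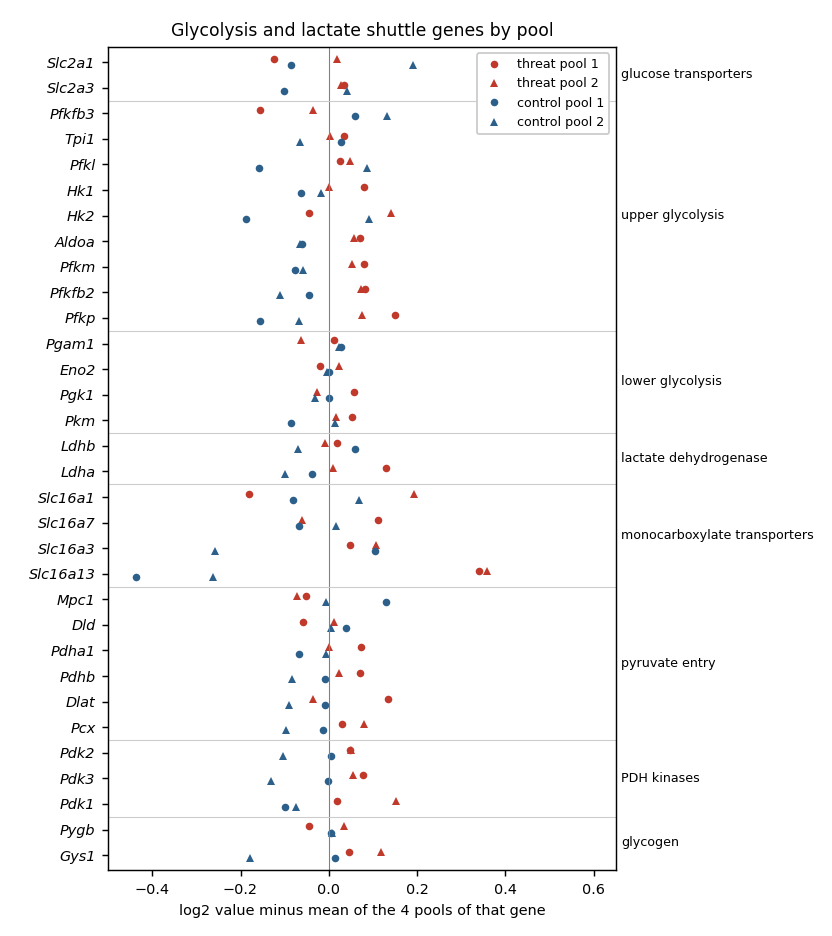
Value of each pool on the log2 scale minus the mean of the 4 pools, for the 32 tested genes grouped by role. Red marks are threat pools and blue marks control pools, circles pool 1 and triangles pool 2. Both threat pools of Slc16a13 stand clear of both control pools, while for most genes the 4 pools lie close together.

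**Figure D2:**
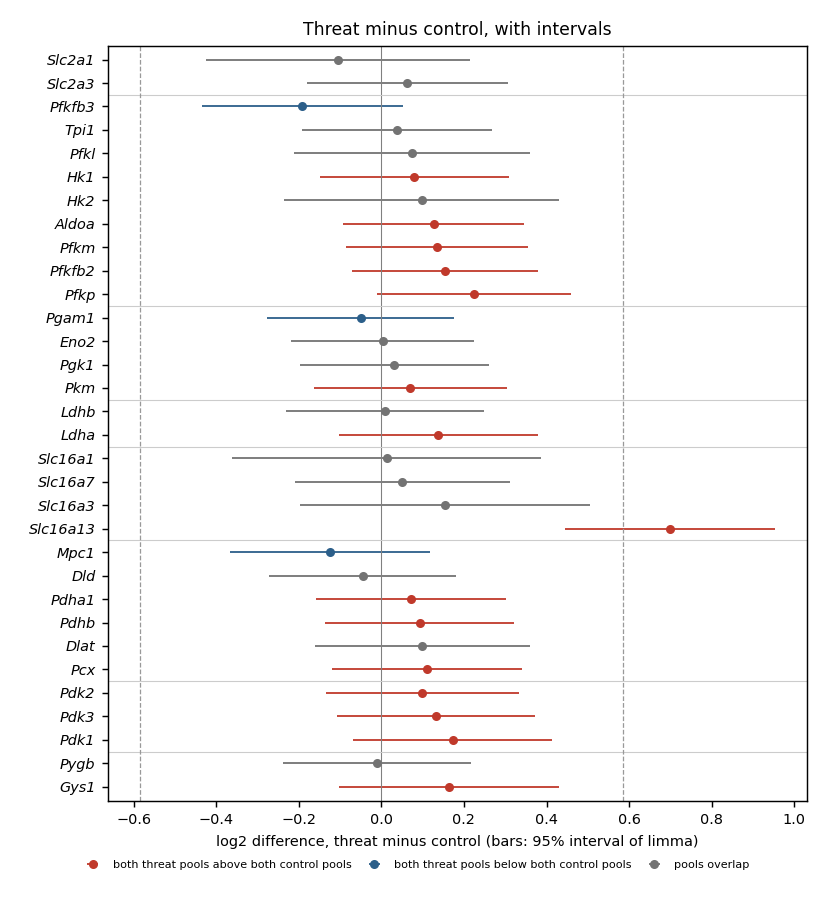
Log2 difference, threat minus control, of each tested gene (point) with its 95% interval from limma (bar). Dashed lines mark 1.5-fold in each direction. Red marks genes with both threat pools above both control pools, blue both below, grey overlapping pools. At the brightest probe set of each gene, only the interval of Slc16a13 lies above 0, and the intervals of the other 31 genes hold 0.

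The glucose transporters did not separate the groups. Slc2a1 (GLUT1), the carrier of brain endothelium and glia, measured 10.04 and 10.18 in the threat pools, against 10.08 and 10.35 in the control pools (log2), a difference of -0.10 ± 0.13 (SE; adjusted p = 0.78). Slc2a3 (GLUT3), the carrier of neurons, measured 11.85 and 11.84 in the threat pools and 11.71 and 11.86 in the control pools, a difference of 0.06 ± 0.10 (adjusted p = 0.83). In both genes 1 control pool stood off from its partner by more than the groups differed. The 3 probe sets of Slc2a1 all lay below 0 with overlapping pools. The 4 probe sets of Slc2a3 lay above 0 at 0.06, 0.08, 0.29 and 0.25, and all but the brightest had both threat pools higher.

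The enzymes of upper glycolysis, which prime and split the sugar, lay higher in 8 of 9 genes, with a median of 0.10. Both threat pools lay above both control pools in 5 genes and below in 1. The background shares were 26.2% above and 18.8% below at 1 probe set per gene. Among probe sets brighter than the median they were 32.3% and 16.8%. Pfkp, the platelet-type subunit of phosphofructokinase, the main control step of the pathway, measured 11.54 and 11.46 in the threat pools, against 11.23 and 11.32 in the control pools. Its difference was 0.22 ± 0.09 (1.17-fold; adjusted p = 0.48), the highest among the 31 genes besides Slc16a13, and its pools did not overlap. Pfkm, the muscle-type subunit, measured 11.88 and 11.86 in threat and 11.73 and 11.74 in control pools, a difference of 0.13 ± 0.09 (adjusted p = 0.59). The liver-type subunit Pfkl overlapped, with 10.96 and 10.98 in threat and 10.77 and 11.02 in control pools. All 3 subunit genes thus lay above 0, with separate pools in Pfkp and Pfkm.

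Aldoa, the aldolase that splits fructose bisphosphate, measured 13.25 and 13.24 in the threat pools, against 13.12 and 13.11 in the control pools, a difference of 0.13 ± 0.09 (adjusted p = 0.61). The hexokinase of most brain cells, Hk1, measured 11.61 and 11.53 in threat and 11.46 and 11.51 in control pools, a difference of 0.08 ± 0.09 (adjusted p = 0.76). Hk2, the insulin- and hypoxia-responsive hexokinase, overlapped at 6.91 and 7.10 in threat and 6.77 and 7.05 in control pools. Tpi1, triosephosphate isomerase, overlapped as well, with a difference of 0.04. The pools of Hk2 and Tpi1 thus overlapped, while those of Aldoa and Hk1 did not. In Hk1 the margin was narrow, with 11.526 in the lower threat pool against 11.509 in the higher control pool. At these probe sets every interval held 0. The adjusted p of Hk2 (0.80) was close to that of Hk1 (0.76), so separate pools alone do not set Hk1 apart.

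The 2 bifunctional enzymes that set the level of fructose 2,6-bisphosphate, the activator of phosphofructokinase, lay on opposite sides. Pfkfb2 measured 7.40 and 7.39 in the threat pools, against 7.28 and 7.21 in the control pools, a difference of 0.15 ± 0.09 (adjusted p = 0.55). Pfkfb3, the form with the strongest kinase side and more active in astrocytes than in neurons, measured 7.17 and 7.29 in threat and 7.39 and 7.46 in control pools, a difference of -0.19 ± 0.10 (1.14-fold lower; adjusted p = 0.52). It was the only gene of upper glycolysis below 0. These directions held for the brightest probe set of each gene, and other probe sets of both genes went the other way.

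At the brightest probe set of each gene, lower glycolysis, where energy is harvested, showed the smallest differences. They lay between -0.05 and 0.07 in its 4 tested genes, with a median of 0.02. Eno2, the neuronal enolase, measured 12.69 and 12.74 in the threat pools, against 12.71 and 12.71 in the control pools, a difference of 0.00 ± 0.09 (95% interval -0.22 to 0.22; adjusted p = 0.996). Pkm, pyruvate kinase, measured 12.544 and 12.508 in threat and 12.406 and 12.505 in control pools (difference 0.07 ± 0.09; adjusted p = 0.80), so that its pools were separate by a margin far smaller than the gap between the control pools. Pgam1, phosphoglycerate mutase, measured 12.32 and 12.25 in threat and 12.34 and 12.33 in control pools (difference -0.05 ± 0.09; adjusted p = 0.85), both threat pools lower. Pgk1, phosphoglycerate kinase, overlapped with a difference of 0.03. Its other 2 probe sets had both threat pools lower, at -0.18 and -0.11. The control probe sets of Gapdh, the dehydrogenase that acts before these steps, gave differences of 0.02, -0.02 and 0.04. They match the 3′ end, the 5′ end and the middle of the transcript, in that order.

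Of the lactate dehydrogenase subunits, Ldha, which favours lactate formation, measured 11.99 and 11.87 in the threat pools, against 11.82 and 11.76 in the control pools, a difference of 0.14 ± 0.10 (adjusted p = 0.61), with separate pools. Ldhb, which favours the return of lactate to pyruvate, measured 12.69 and 12.66 in threat and 12.73 and 12.60 in control pools, a difference of 0.01 ± 0.10 (adjusted p = 0.98), with the threat pools inside the control range. The difference between these 2 genes' responses was not tested. The 4 probe sets of Ldhb lay between -0.03 and 0.09, all with overlapping pools.

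Slc16a13 (MCT13), a little studied relative of the lactate transporters, was the single gene with a sizeable difference. It measured 6.27 and 6.29 in the threat pools, against 5.49 and 5.66 in the control pools, a log2 difference of 0.70 ± 0.10 (95% interval 0.44 to 0.95) or 1.62-fold (interval 1.36 to 1.94). Both threat pools lay above both control pools by far more than either pair differed. Its adjusted p was 0.365 with limma. Leaving out 1 pool at a time gave 0.61 to 0.79. The gene has 1 probe set, so no second reading of its transcript was at hand. Its control pools lie near the median of all probe sets (5.56) and above the range of 27 bacterial control probe sets that match no mouse transcript (3.01 to 4.25).

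The established lactate carriers did not separate the groups. Slc16a1 (MCT1), the transporter of endothelium, astrocytes and oligodendrocytes, measured 9.75 and 10.13 in the threat pools, against 9.853 and 10.005 in the control pools, a difference of 0.01 ± 0.15 (adjusted p = 0.99), and its threat pools differed from each other by more than the group means did. Slc16a7 (MCT2), the high-affinity transporter of neurons, measured 7.15 and 6.98 in threat and 6.97 and 7.05 in control pools, a difference of 0.05 ± 0.10 (adjusted p = 0.88). Slc16a3 (MCT4), the low-affinity exporter of astrocytes, measured 4.18 and 4.23 in threat and 4.23 and 3.87 in control pools. Every pool of Slc16a3 lay below the highest bacterial control value of 4.25, so it was not measured above background and its difference is not read. It remains in the counts and medians of the tested genes and of the monocarboxylate transporters. The chaperone Bsg, which takes MCT1 and MCT4 to the cell surface, lay at 0.02 ± 0.09.

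Genes of pyruvate entry lay close to 0, with a median of 0.08 over 6 genes. Mpc1, a subunit of the mitochondrial pyruvate carrier, measured 11.43 and 11.41 in the threat pools, against 11.62 and 11.48 in the control pools, a difference of -0.12 ± 0.10 (adjusted p = 0.64), and it was the only gene of this role with both threat pools lower. Of the pyruvate dehydrogenase complex, Pdha1 (catalytic alpha subunit) measured 11.832 and 11.760 in threat and 11.693 and 11.754 in control pools, a difference of 0.07 ± 0.09 (adjusted p = 0.79). Pdhb (beta subunit) measured 11.72 and 11.68 in threat and 11.64 and 11.57 in control pools, a difference of 0.09 ± 0.09 (adjusted p = 0.72). Both had separate pools, Pdha1 by a narrow margin, while Dlat (acetyltransferase core) overlapped at 0.10 ± 0.10. Dld, the dehydrogenase shared with other complexes, measured 9.77 and 9.84 in threat and 9.87 and 9.84 in control pools, a difference of -0.05 ± 0.09. Pcx, pyruvate carboxylase, an enzyme of astrocytes that refills the citric acid cycle, measured 8.46 and 8.51 in threat and 8.42 and 8.33 in control pools, a difference of 0.11 ± 0.09 (adjusted p = 0.67). Its array control probe sets lay between -0.06 and 0.15, all with overlapping pools. Every interval in this role holds 0, and the other 2 probe sets of Dlat lay just below 0, at -0.02 and -0.01.

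Of the kinases that switch off pyruvate dehydrogenase, Pdk1, Pdk2 and Pdk3 had both threat pools above both control pools, with a median of 0.13, while the pools of Pdk4 overlapped. Pdk1 measured 9.86 and 9.99 in the threat pools, against 9.74 and 9.76 in the control pools, a difference of 0.17 ± 0.10 (adjusted p = 0.54). Pdk2 measured 9.22 and 9.22 in threat and 9.18 and 9.07 in control pools (0.10 ± 0.09; adjusted p = 0.71), and Pdk3 measured 8.51 and 8.48 in threat and 8.43 and 8.30 in control pools (0.13 ± 0.10; adjusted p = 0.63). The 3 genes were 1.07- to 1.13-fold higher, with intervals that hold 0. Pdk4, from the list of other genes of the complex, measured 7.74 and 8.04 in the threat pools, against 7.54 and 7.79 in the control pools, a difference of 0.23 ± 0.15 (adjusted p = 0.59). The phosphatase gene Pdp1, whose product switches the complex on, lay the other way: it measured 9.91 and 9.82 in the threat pools, against 10.38 and 10.29 in the control pools, a difference of -0.47 ± 0.10 (1.38-fold lower; adjusted p = 0.41). The other phosphatase, Pdp2, lay at 0.18 and the phosphatase regulator Pdpr at 0.22, both with separate pools. None of these kinase and phosphatase genes reached an adjusted p of 0.05, and another probe set of Pdk1 had both threat pools lower, at -0.29. Over the 7 other genes of this complex and its relatives, 5 had both threat pools higher and 1, Pdp1, had both lower, with a median of 0.18. The background for these counts and for the 3 kinases was 26.2% higher and 18.8% lower at 1 probe set per gene. Among probe sets brighter than the median it was 32.3% and 16.8%.

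The promoters of Pdk1, Pdk2 and Pdk3 are shown because all 3 genes had both threat pools higher at their brightest probe set. The windows of 300 bases around the annotated start come from RefSeq (GRCm38.p6), written 5′ to 3′ on the gene's strand, at the first listed start of each gene. Capitals mark ACGTG or GCGTG, the core of the hypoxia response element, on either strand.
Pdk1, chr2:71872974-71873273, plus strand: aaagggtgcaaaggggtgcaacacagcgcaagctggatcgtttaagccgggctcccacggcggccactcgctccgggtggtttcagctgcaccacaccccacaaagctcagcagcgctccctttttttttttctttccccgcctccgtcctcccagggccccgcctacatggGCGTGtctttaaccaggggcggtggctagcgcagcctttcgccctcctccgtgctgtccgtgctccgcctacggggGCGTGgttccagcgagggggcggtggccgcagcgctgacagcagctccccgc
Pdk2, chr11:95041322-95041621, minus strand: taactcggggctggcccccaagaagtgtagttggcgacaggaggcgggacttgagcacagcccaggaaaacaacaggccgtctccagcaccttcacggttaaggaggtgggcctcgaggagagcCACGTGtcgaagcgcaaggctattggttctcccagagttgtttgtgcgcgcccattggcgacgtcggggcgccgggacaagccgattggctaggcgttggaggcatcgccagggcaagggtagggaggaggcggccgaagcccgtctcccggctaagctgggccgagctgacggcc
Pdk3, chrX:93832101-93832400, minus strand: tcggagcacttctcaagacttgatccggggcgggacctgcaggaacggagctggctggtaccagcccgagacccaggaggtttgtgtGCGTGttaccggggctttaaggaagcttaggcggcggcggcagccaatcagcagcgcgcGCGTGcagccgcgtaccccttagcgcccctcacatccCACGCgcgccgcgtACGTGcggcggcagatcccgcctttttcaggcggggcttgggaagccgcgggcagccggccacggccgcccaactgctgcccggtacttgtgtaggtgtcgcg
The letters occur at 2 places in the Pdk1 window and 4 in the Pdk3 window. Both matches in the Pdk2 window are the 2 strands of a single CACGTG, which is also the E-box motif. Of the 32 tested genes, 29 had a window; Slc2a3, Slc16a7 and Slc16a13 had none. Of the 44 windows of these 29 genes, 31 (70.5%) held the motif, against 43.8% of the 32851 promoter windows of all genes, and 7 held CACGTG (15.9%, against 7.2%). All of these motifs hold the letters CG, and the windows compared were not matched for base content. The shares are therefore not read as enrichment. Windows of 1 gene can overlap, and a match in letters is a description, not a binding site. Of 16 hypoxia genes outside glycolysis, 2 had both threat pools higher and 5 both lower, with a median of 0.01. Vegfa, the vascular growth factor, lay at -0.47 ± 0.12 (adjusted p = 0.43) and Ankrd37 at -0.26 ± 0.10 (adjusted p = 0.47). Also lower were Hif1a at -0.21 ± 0.10 and Arnt at -0.20 ± 0.09, which encode subunits of the hypoxia-inducible factor itself. Car9 was lower too, but only its control pool 1 (4.27) lay above the highest bacterial control value (4.25). Its difference is therefore not read, although Car9 is among the 5 counted as lower and in the median. The higher genes were Egln3 at 0.15 ± 0.11 and Kdm3a at 0.13 ± 0.09.

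Of the 2 glycogen genes, Pygb lay close to 0 and Gys1 higher, with intervals that both hold 0. Gys1, the glycogen synthase of brain and muscle, measured 7.14 and 7.21 in the threat pools, against 7.10 and 6.91 in the control pools, a difference of 0.16 ± 0.11 (adjusted p = 0.59). Pygb, the brain glycogen phosphorylase, measured 10.39 and 10.47 in threat and 10.44 and 10.44 in control pools, a difference of -0.01 ± 0.09 (adjusted p = 0.98). The threat pools of Gys1 were both higher, but those of its other probe set overlapped the control pools (difference -0.01), as did those of Pygb. Of 17 other glycogen genes, 5 had both threat pools higher and 3 both lower (median 0.08). Among them Pygm, another glycogen phosphorylase, lay at -0.31 ± 0.11 (adjusted p = 0.45) and the phosphorylase kinase subunit Phka2 at 0.26 ± 0.10 (adjusted p = 0.46).

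Several genes are read by more than 1 probe set, which may match different transcript ends. Of the 67 probe sets of the 32 genes, 29 had both threat pools higher and 9 both lower. Over all probe sets the shares were 23.9% and 19.4%, and among those brighter than the median 32.3% and 16.8%. Probe sets of 1 gene are not independent readings. Among the 18 genes with several, 3 (Hk1, Pdha1 and Pfkp) had both threat pools higher in every probe set, and 4 (Aldoa, Pdk1, Pfkfb2 and Pfkfb3) had separate pools in both directions. The 3 probe sets of Pfkp lay at 0.22, 0.19 and 0.50, and the 2 of Hk1 at 0.08 and 0.27. Those of Pfkfb3 lay at -0.19 and 0.33, the second with 6.26 and 6.14 in the threat pools, against 5.87 and 5.87 in the control pools. Those of Pfkfb2 lay at 0.15, -0.27, 0.42 and 0.17, and those of Pdk1 at 0.17, 0.36, -0.29 and 0.08, the last of each inside the range of the bacterial controls. Aldoa had 4 probe sets between 0.02 and 0.13 with threat higher and 1 at -0.17 with threat lower. All 5 carry the suffix _x_at, so Aldoa had no value where probe sets with that suffix were left out. In Pdk1 the probe set at -0.29 measured 7.65 and 7.72 in threat and 7.96 and 7.99 in control pools. The direction of Aldoa, Pfkfb2, Pfkfb3 and Pdk1 therefore depends on the probe set, while that of Pfkp and Hk1 does not. For Tpi1 and Pgk1 the brightest probe set lay just above 0 and both others below. Both threat pools were lower in both of these others of Pgk1 and in 1 of Tpi1, at -0.21.

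**Figure D3:**
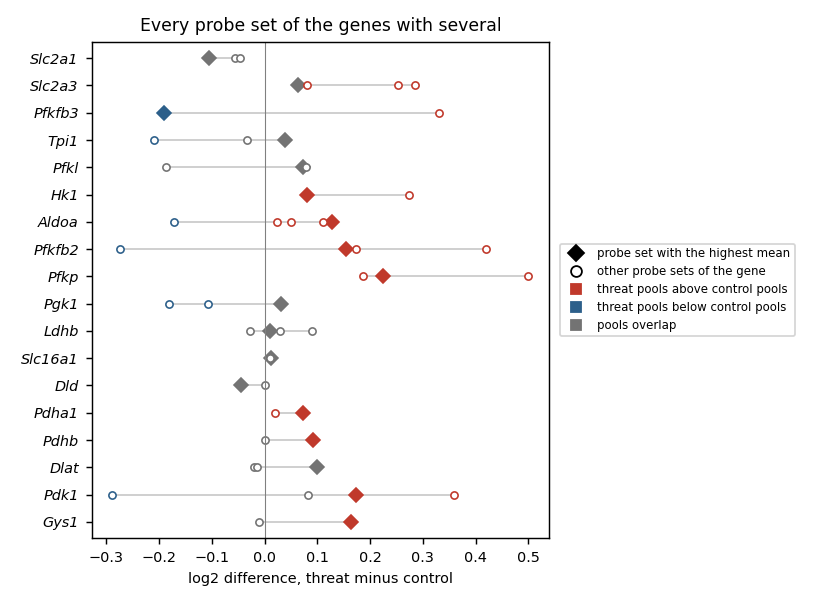
Log2 difference, threat minus control, of every probe set of the 18 genes that have several. Filled diamonds are the probe sets with the highest mean, open circles the others, red where both threat pools lie above both control pools, blue where both lie below and grey where they overlap. Pfkfb3 spans -0.19 to 0.33 and Pdk1 -0.29 to 0.36, while all 3 probe sets of Pfkp lie above 0.

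Neighbouring pathways mostly had medians near the 0.02 of all probe sets, which was 0.06 among those brighter than the median. The background for the separate-pool counts of all lists, at 1 probe set per gene, was 26.2% with threat higher and 18.8% lower. Among probe sets brighter than the median it was 32.3% and 16.8%. Of 17 other glycolytic isoforms and regulators, 3 had both threat pools higher and 4 both lower (median 0.02), with Hk3 at -0.28 ± 0.10 and Bpgm, the bisphosphoglycerate mutase of red cells, at -0.27 ± 0.09 (adjusted p = 0.46 and 0.45). Of 17 citric acid cycle genes, 5 had both threat pools higher and 4 both lower (median 0.01). Aco1, the cytosolic aconitase that also senses iron, stood apart there at -0.66 ± 0.13 (1.58-fold lower; adjusted p = 0.41). In the pentose phosphate pathway 1 of 8 genes had both threat pools higher and none both lower (median 0.02). Among 9 genes of the shuttles that carry reducing power of NADH into mitochondria, 4 had both higher and none both lower (median 0.07), with Got1, the cytosolic aspartate aminotransferase, at 0.16 ± 0.09. Of 16 regulators of glucose and energy use, 6 had both higher and 1 both lower (median 0.09). Irs2, an insulin receptor substrate, lay at 0.42 ± 0.19, and Prkaa1, a catalytic subunit of the energy sensor AMPK, at -0.28 ± 0.12 (adjusted p = 0.50 and 0.48). Of 10 partners and relatives of the monocarboxylate transporters, 1 had both higher and 1 both lower (median 0.02). None of the genes on these lists reached an adjusted p of 0.05 with limma.

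Cell type markers mostly lay lower in threat, and several lists by more than the metabolic genes, although none reached an adjusted p of 0.05 with limma. In bulk tissue, fewer cells of a type and less RNA per cell cannot be told apart. At 1 probe set per gene, both threat pools lay lower in 18.8% of all genes and higher in 26.2%. All 11 measured myelin markers had both threat pools lower (median -0.97), with mean levels over the list of 8.89 and 9.09 in the threat pools, against 10.18 and 9.73 in the control pools. Of 12 astrocyte markers, 5 had both threat pools lower and 1 both higher (median -0.09), with mean levels of 10.25 and 10.46 in threat and 10.50 and 10.54 in control pools. Gfap, the astrocyte filament protein, lay at -0.59 ± 0.13 and Aldoc, the astrocytic aldolase, at -0.13. Of 11 endothelial markers, 5 had both lower and none both higher (median -0.28), at 6.28 and 6.78 in threat and 6.57 and 7.10 in control pools. Of 12 neuron markers, 6 had both lower and 2 both higher (median -0.03). Their mean levels were 11.74 and 11.73 in threat and 11.77 and 11.82 in control pools. Gad1, the enzyme of GABA synthesis, was the lowest at -0.42 ± 0.09 (adjusted p = 0.41). The 2 with both threat pools higher were Slc17a7 at 0.23 ± 0.10 and Stmn2 at 0.17 ± 0.09 (adjusted p = 0.48 and 0.52). None of the markers of any cell type list had all pools at or below the highest bacterial control value. The part that these cell types have in the differences of the glycolysis and lactate genes was not tested.

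The medians of the other marker lists lay below 0 too. Microglia markers had a median of -0.14 (4 of 9 with both threat pools lower), with mean levels of 9.49 and 9.61 in threat and 9.75 and 9.63 in control pools. Mural and meningeal markers had -0.52 (5 of 10), at 7.71 and 8.25 in threat and 8.26 and 9.02 in control pools, so the higher threat pool nearly met the lower control pool. Choroid plexus and ependyma markers had -0.51 (5 of 8), at 5.16 and 5.20 in threat and 6.07 and 5.42 in control pools. Among the 5, both threat pools of Foxj1 and Tmem212 lay below the highest bacterial control value (4.25), so the size of these differences is uncertain. Control pool 1 stood apart in this list, with Ttr, the transthyretin of choroid plexus, at 6.15 and 6.18 in threat and 9.05 and 6.48 in control pools. Blood markers had -0.75 (3 of 4), at 5.90 and 5.66 in threat and 6.72 and 6.17 in control pools. Against these, the role medians of the glycolysis and lactate genes all lay between -0.02 and 0.13.

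**Figure D4:**
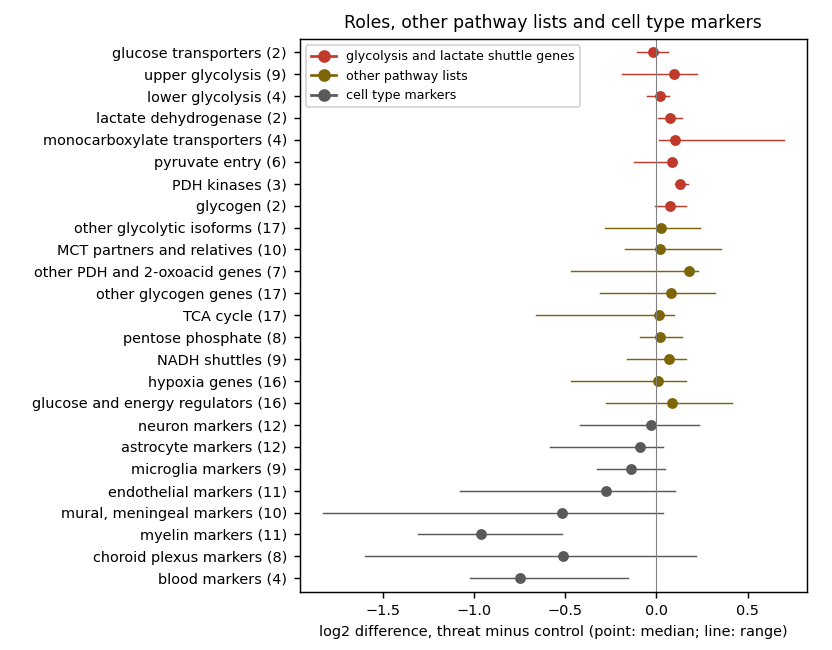
Median (point) and range (line) of the log2 differences, threat minus control, in each role of the glycolysis and lactate shuttle genes (red), other pathway lists (ochre) and cell type markers (grey), with the number of measured genes in brackets. The role medians lie between -0.02 and 0.13, while myelin markers have a median of -0.97.

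The arrays were alike, with correlations between 0.994 and 0.996 across all probe sets. The log2 signal at the 3′ end minus that at the 5′ end, a sign of RNA integrity, was 0.03 and -0.03 in the threat pools, against -0.02 and -0.05 in the control pools, for Gapdh. For Pcx it was 2.03 and 1.59 in the threat pools, against 1.82 and 2.01 in the control pools, with pools of 1 group farther apart than the group means.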

How the data were processed

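Total RNA of mouse prefrontal cortex, extracted with a Qiagen kit per the labels' protocols, was hybridised to 1 array per pool. The authors deposited log2 values, 1 for each probe set on each array, made with RMA per the submitters' processing notes. RMA usually gives all arrays a common distribution, so a shift shared by most transcripts would be hidden. The sources used here give no version or settings. Values ran from 2.51 to 14.37, with array medians of 5.53 to 5.58. The number of arrays limits the precision.

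Of 45101 probe sets, 64 array controls were left out. Threat minus control was fitted with limma 3.58.1 in R 4.3.3 (lmFit, eBayes, 2-sided, Benjamini-Hochberg over 45037 probe sets, 2 residual degrees of freedom), which was tested on simulated data. Pools were called separate when both threat pools lay above, or both below, both control pools. The array annotation gave the symbols.

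The genes and lists were chosen with earlier results of these data known. No list was tested. Every gene of the set is named, each role with all its genes. From the other lists at most the 2 genes with the largest difference, separate pools and a level over the probe sets' median (5.56) are named. Bsg, Pdp2, Pdk4, Aldoc, Ttr, Slc17a7, Stmn2, Hif1a, Arnt, Car9, Egln3, Kdm3a and the list counts stand beside the genes they bear on. These were named after their values were seen. Alternatives were a replicate block, other normalizations, an intensity trend, probe set filters, other ways to choose a probe set and leaving out each pool.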

Additional observations from a re-analysis of the deposited data

How the results depend on the processing

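Of 382 values of single genes under 12 alternatives, 169 were identical to the reported value, among them all those of the replicate block and the intensity trend, which cannot change a difference here. Of the 213 that changed, 192 kept their direction. No gene passed an adjusted p of 0.05 under any (lowest 0.249). With limma 0 probe sets passed under each alternative fitted (4774 at an unadjusted p under 0.05 with all pools and no block). The 1.5-fold rule was met by 1 gene under each alternative, and the same rule at 2-fold by 0. Threat was higher with separate pools in 13 genes with cyclic loess (4 lower) and in 20 with median centring (2 lower), against 20.7% and 31.0% of all probe sets. The pool numbers are not said to pair the pools, and the gaps between pools 1 and 2 correlated at 0.33 between threat and control over all probe sets. With the pool number as a replicate block 0 probe sets were called. The median (0.08) and the 18 genes with separate pools are the same by construction.

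The median over the 32 genes was 0.054 with cyclic loess, 0.11 with median centring and 0.060 on averaging a gene's probe sets, where all probe sets or genes had 0.0064, 0.051 and 0.016. Cyclic loess gave 0.068 for upper glycolysis, 0.043 for pyruvate entry and 0.058 for the kinases. Median centring gave 0.13 for upper and 0.053 for lower glycolysis and 0.12 for pyruvate entry. Averaging probe sets gave -0.024 for lower glycolysis and 0.034 for pyruvate entry. Without _x_at and _s_at probe sets the glucose transporters had 0.091 and upper glycolysis, then without Aldoa, 0.089. Among bright probe sets alone the monocarboxylate transporters, without Slc16a3, had 0.051.

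Without 1 pool at a time, when fewer pools have to be separate, 23 to 27 genes were separate, 19 to 20 with threat higher and 3 to 8 with threat lower (3 with all pools; 8 without threat pool 2, 6 without control pool 1, 5 without control pool 2), against 37.2% to 40.4% of all probe sets higher and 31.1% to 35.2% lower. The median ran from 0.064 to 0.093. It ran from -0.13 to 0.083 for glucose transporters, 0.085 to 0.12 for upper and 0.0066 to 0.030 for lower glycolysis, 0.026 to 0.12 for lactate dehydrogenase, 0.090 to 0.19 for monocarboxylate transporters, 0.025 to 0.097 for pyruvate entry, 0.067 to 0.16 for the kinases and 0.029 to 0.12 for glycogen.

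Direction turned in 12 genes above background. Leaving out 1 pool, the difference ran from -0.24 to 0.033 for Slc2a1, -0.0090 to 0.13 for Slc2a3, -0.042 to 0.24 for Hk2, -0.049 to 0.20 for Pfkl, -0.0078 to 0.085 for Tpi1, -0.012 to 0.073 for Pgk1, -0.019 to 0.025 for Eno2, -0.055 to 0.074 for Ldhb, -0.17 to 0.20 for Slc16a1, -0.034 to 0.14 for Slc16a7 and -0.051 to 0.030 for Pygb. Slc16a3, not above background and not read, ran from -0.027 to 0.33. Averaging a gene's probe sets gave -0.012 for Pfkl, 0.069 for Pfkfb3, -0.068 for Tpi1 and -0.086 for Pgk1. Cyclic loess gave -0.037 for Slc16a1 and -0.0042 for Slc16a7, and median centring 0.025 for Pygb. The cause of these changes was not tested.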
